A study of Mus musculus with 18 samples.

Results

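The aquaporins described here are 6 mouse water and glycerol channels, Aqp1, Aqp3, Aqp4, Aqp7, Aqp8 and Aqp11, taken by gene symbol from a count table of 54532 genes over 18 libraries of colonic epithelium. All 6 symbols were found, and 4 of them (Aqp1, Aqp4, Aqp8 and Aqp11) passed the filter on low counts that left 17692 genes to be tested. Aqp3 and Aqp7 did not pass and are given as counts. The libraries form 6 groups of 3: distal colon and proximal colon of wild type C57BL/6J mice, of mice lacking Rab11-FIP1 and of mice lacking Rab11-FIP2. No group received a treatment. The labels give each knockout only as KO, with no allele, promoter or Cre, and give no age or sex. Epithelial cells were taken from fresh colon with micro forceps in cold PBS with 30 mM EDTA. Nothing in the labels says that the 3 libraries of a group come from separate mice, so the p-values measure the spread between these libraries, which may be technical.

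Aquaporins are small membrane proteins that sit in the membrane as tetramers and let water pass along an osmotic gradient. One branch, the aquaglyceroporins Aqp3 and Aqp7, also passes glycerol, and Aqp11 belongs to a divergent branch found largely inside cells. In the colon, where the epithelium takes up water behind absorbed salt, Aqp8 is known from surface colonocytes, Aqp4 from basolateral membranes and Aqp3 from colonocytes as well. Aqp1 is best known from endothelium, red cells and kidney tubules. Rab11-FIP1 and Rab11-FIP2 are adaptors of the recycling GTPase Rab11a, and Rab11-FIP2 with the motor myosin Vb is known to carry Aqp2 to the membrane of kidney collecting duct cells.

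Positions are given as the deposited table has them, on the GRCm38 build. Aqp1 (ENSMUSG00000004655) is at chr6:55336432-55348555 on the plus strand, and Aqp8 (ENSMUSG00000030762) is at chr7:123462291-123468004 on the plus strand. Aqp11 (ENSMUSG00000042797) is at chr7:97724006-97738289 on the minus strand. Aqp3 (ENSMUSG00000028435) at chr4:41092722-41098183 and Aqp7 (ENSMUSG00000028427) at chr4:41033074-41048139 are neighbours on the minus strand, and Aqp4 (ENSMUSG00000024411) is also on a minus strand. In the table no other gene's span overlapped any of the 6, and each is annotated as protein coding.

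The stretches just before the transcription starts of Aqp8, Aqp1 and Aqp11 are shown because these genes are 3 of the 4 that differ between the wild type segments described below, Aqp8 in one direction and Aqp1 and Aqp11 in the other. The fourth, Aqp4, is not shown. They come from RefSeq on GRCm38.p6 and are written 5′ to 3′ on the gene's strand, with CG dinucleotides in capitals.
Aqp8, chr7:123462044-123462290, plus strand: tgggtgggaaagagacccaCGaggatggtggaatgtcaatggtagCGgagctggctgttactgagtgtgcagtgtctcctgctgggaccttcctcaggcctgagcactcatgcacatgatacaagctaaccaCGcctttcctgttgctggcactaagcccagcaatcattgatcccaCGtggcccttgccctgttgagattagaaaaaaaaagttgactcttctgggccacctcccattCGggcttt
Aqp1, chr6:55336049-55336298, plus strand: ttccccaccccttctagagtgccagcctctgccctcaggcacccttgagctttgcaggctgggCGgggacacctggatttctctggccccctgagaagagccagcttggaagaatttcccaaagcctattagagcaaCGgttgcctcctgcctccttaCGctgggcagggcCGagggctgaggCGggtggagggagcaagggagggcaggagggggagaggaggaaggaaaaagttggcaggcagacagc
Aqp11, chr7:97738290-97738497, minus strand: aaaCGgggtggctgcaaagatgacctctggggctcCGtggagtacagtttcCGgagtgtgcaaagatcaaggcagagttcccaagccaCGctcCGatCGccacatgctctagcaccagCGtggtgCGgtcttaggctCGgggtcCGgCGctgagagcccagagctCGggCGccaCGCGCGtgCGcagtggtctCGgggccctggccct
The printed stretches of Aqp8 and Aqp1 hold 5 CG dinucleotides each, and that of Aqp11, the shortest of the 3, holds 18. Over the full 250 bases before the start the Aqp11 window has 23 CG dinucleotides and 67.2% G and C, against medians of 6 and 52.4% over 32851 RefSeq windows of that length. The Aqp8 window equals that median in base composition at 52.4%. Windows of 5 of the 6 members were searched on both strands for 6 motifs, none overlapping another, and Aqp4 was left out of the search. The motifs were TATAAA (the TATA box, in 12.4% of all windows), TTTATG (Cdx, 10.8%), TTTACG (posterior Hox, 2.61%), CAAAGTCC (HNF4, 1.20%), TTCNNNGAA (STAT, 7.02%) and AGAACA followed after 3 bases by TGTTCT (glucocorticoid and mineralocorticoid receptors, 0.00913%). The single match in the members' windows was TATAAA before Aqp3, 29 bases before the start.

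Library totals ran from 11193308 to 22062300 counts. The targeted genes fell in their own knockouts without reaching 0. Rab11fip1 stood at 48.5 CPM (counts scaled to a common library total) in the distal and 67.5 CPM in the proximal FIP1 knockout libraries, against 116 and 138 CPM in wild type, and Rab11fip2 at 3.52 and 3.67 CPM in the FIP2 knockout against 7.38 and 6.61 CPM. All 9 epithelial markers (Epcam, Cdh1 and others) had counts in every library and summed to between 8568 and 14311 CPM. Distal Hox markers summed to between 160.1 and 274 CPM in distal and between 1.29 and 27.1 CPM in proximal libraries. One library stood apart: wild type proximal library 2 held 147 CPM of neuron markers, against 26.7 and 31.8 CPM in the other 2 of its group. Aqp4 differences that rest on it, and list counts of knockout against wild type, are also given without it. Calls of marker genes and folds of the Aqp4 to Aqp8 ratio are given with it only. Mitochondrially encoded genes took 18.1 to 32.3% of the counts in wild type and 11.2 to 20.1% in knockout libraries; without these genes every aquaporin call stayed as it was. T cell markers summed to between 11.2 and 27.3 CPM in wild type and between 32.7 and 121 CPM in the knockouts, and B and plasma cell markers to between 2.42 and 19.2 CPM and between 4.84 and 132 CPM, with all 6 called higher by edgeR in distal FIP1 and in proximal FIP2 knockout. Neuron markers were called lower for 8 of 9 tested in proximal FIP1 knockout (3.01 to 7.35 CPM) and for 6 of 9 in proximal (7.20 to 17.2 CPM) and 6 of 9 in distal FIP2 knockout (4.24 to 4.94 CPM, against 14.3 to 17.3 CPM in distal wild type). Over all tested genes 8.84% were called higher in distal FIP1 and 7.6% in proximal FIP2 knockout. Called lower were 6.89% in proximal FIP1, 7.07% in proximal FIP2 and 9.38% in distal FIP2 knockout. The part of the T cell, B and plasma cell and neuron lists in the aquaporin results was not tested.

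Aqp8 and Aqp4 made up most of the aquaporin transcript in these cells. Levels of different genes are compared here as FPKM, the deposited unit that divides the fragments of a gene by its length and by the size of the library. Aqp8 ran from 145 to 1422 FPKM over the 18 libraries, Aqp4 from 20.7 to 326 FPKM, Aqp1 from 2.95 to 27.6 FPKM and Aqp11 from 4.19 to 16.2 FPKM, while Aqp3 and Aqp7 never passed 0.372 FPKM. Together Aqp8 and Aqp4 held between 83.2 and 99.3% of the summed aquaporin FPKM of a library. By group mean Aqp8 came first and Aqp4 next in all 6 groups, and the FIP1 knockout proximal group was the 1 in which the ranges of this pair met, with Aqp8 at 145 to 424 FPKM and Aqp4 at 94.5 to 214 FPKM. In wild type proximal colon Aqp4, at 20.7 to 77.2 FPKM, overlapped Aqp1, at 13.4 to 27.6 FPKM, and in library 3 Aqp1 stood above it at 21.99 FPKM. Aqp1 and Aqp11 did not separate in 5 of the 6 groups. In the FIP2 knockout proximal group they did, with Aqp1 at 18.5 to 21.7 FPKM and Aqp11 at 6.98 to 9.01 FPKM. The order of this lower pair depends on the length used, since the deposited FPKM values imply a length of 2241 bases for Aqp11 while the table lists 9418 bases.

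**Figure D1:**
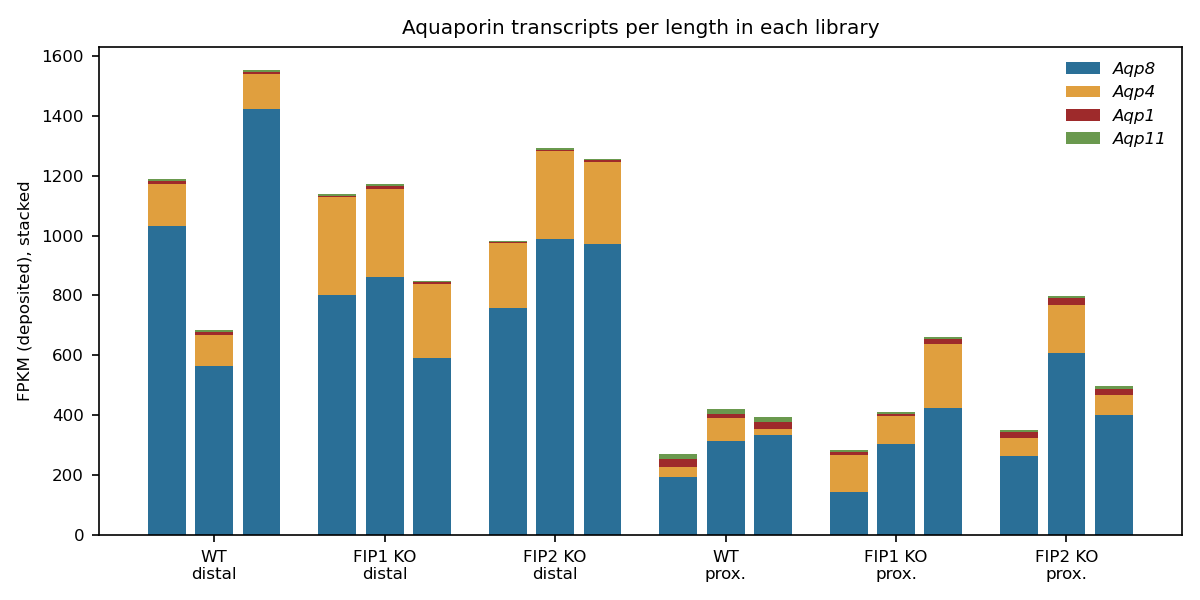
Bars give the deposited FPKM of Aqp8, Aqp4, Aqp1 and Aqp11 stacked for each of the 18 libraries, 3 per group, on a linear axis from 0. Aqp8 (blue) is the tallest part of each bar, distal bars reach 686 to 1553 FPKM in wild type, and the Aqp4 part (yellow) is larger in the FIP1 knockout bars than in the wild type bars of the same segment.

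Proximal and distal wild type epithelium differed in all 4 tested aquaporins, 2 in each direction: Aqp8 and Aqp4 were lower in the proximal colon, Aqp1 and Aqp11 higher. In this comparison 16.4% of all tested genes were called by edgeR at an adjusted p under 0.05, and in 28.3% the libraries of the groups did not overlap, which was the case for all 4 aquaporins. Aqp8, the main water channel of surface colonocytes, stood at 1319.7, 834 and 2037 CPM in the distal and at 279, 528 and 481 CPM in the proximal wild type libraries. Every proximal value lay below the lowest distal one. The difference was -1.70 ± 0.38 (log2, SE, n = 3 against 3, edgeR adjusted p = 0.004005), a level 3.25-fold lower, and stayed called when any 1 library was left out. The summed CPM of the 10 surface colonocyte markers ran the other way, at 10781 to 24345 CPM distally and 42072 to 54440 CPM proximally. Abundant genes weigh most in such a sum, and single markers can differ from it. Car4, a member of the list, had a Pearson correlation of 0.898 with Aqp8 in log2 CPM over the 18 libraries. The part of these markers in the Aqp8 level was not tested. Aqp4, a fast water channel best known from astrocyte end feet and also found in colon, stood at 679, 575 and 628 CPM distally and at 177, 482 and 111 CPM proximally. Its distal libraries were close together while proximal library 2, the one with neuron transcripts, stood well above the other two. The difference was -1.29 ± 0.42 (edgeR adjusted p = 0.04305). This call was lost without any of the 3 distal libraries or without proximal library 1 or 3 (adjusted p from 0.07223 to 0.1468), in DESeq2 (-1.27, adjusted p = 0.0718) and in a fit of these 6 libraries alone (-1.30, adjusted p = 0.08735), and without proximal library 2 the value was -2.12 with an adjusted p of 0.0007785.

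Aqp1 ran the other way, at 22.7, 28.6 and 16.3 CPM in the distal and 76.7, 43.3 and 61.0 CPM in the proximal wild type libraries. Its proximal libraries all stood above the distal ones, by 1.42 ± 0.28 (log2, SE, edgeR adjusted p = 0.001283), a level 2.68-fold higher. Aqp11, the intracellular family member, stood at 13.7, 17.7 and 15.04 CPM distally and 38.4, 43.4 and 37.7 CPM proximally. The groups were far apart relative to their spread, by 1.36 ± 0.19 (edgeR adjusted p = 4.152e-05), 2.57-fold. Neither call was lost when a library was left out. Since Aqp1 is also a gene of endothelium and red cells, their markers were read beside it. The 10 endothelial markers summed to 14.0 to 33.7 CPM in the distal and 7.80 to 13.2 CPM in the proximal wild type libraries, and Cdh5 never passed 0.93 CPM in any library. The 7 red cell markers summed to 20.2 to 101 CPM distally and 8.24 to 22.8 CPM proximally. Pecam1 gave much of the endothelial sum, at 8.73 to 21.8 CPM distally and 3.74 to 6.54 CPM proximally. Of the 8 endothelial markers tested 2 were called lower proximally, with a median log2 difference of 0.39 over the 8, and of the 5 red cell markers tested 2 were called lower, with a median of -2.05. The part of either list in the Aqp1 level was not tested. In bulk libraries such as these, more or fewer cells of a type and more or less RNA per cell cannot be told apart.

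**Figure D2:**
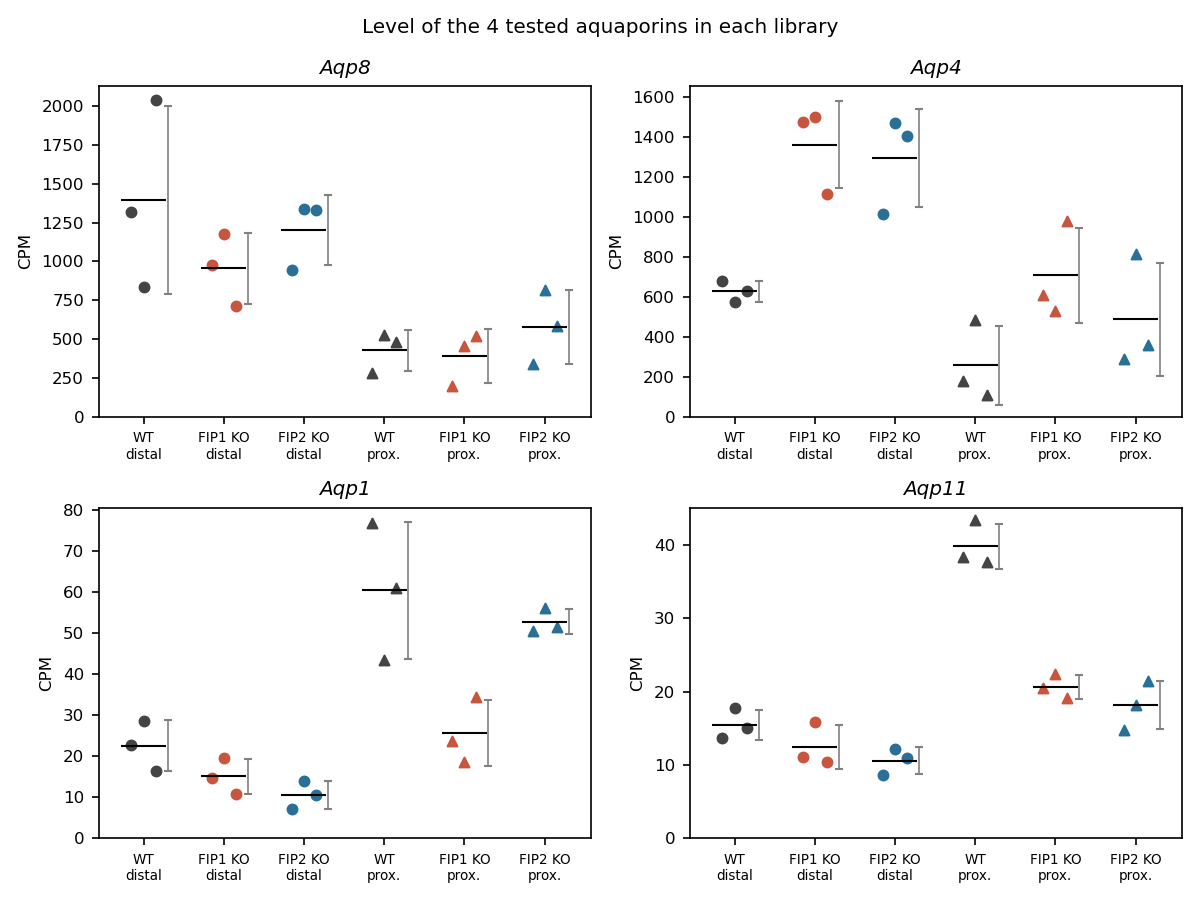
Each point is 1 library's level in CPM on a linear axis from 0, for Aqp8, Aqp4, Aqp1 and Aqp11, with circles for distal and triangles for proximal colon; black lines are group means and grey bars 1 SD (n = 3). Within each genotype the mean of Aqp8 and of Aqp4 is higher in the distal group, and that of Aqp1 and of Aqp11 in the proximal group. The wild type proximal group alone holds Aqp11 values of 37.7 CPM or more.

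The same directions between segments were measured in both knockouts, with fewer calls. In the FIP1 knockout 2 of 4 tested aquaporins were called, against 6.6% of all tested genes, and 3 of 4 had libraries that did not overlap, against 23.2% of all. Aqp8 stood at 976, 1174 and 714 CPM distally and 196, 457 and 520.2 CPM proximally, and Aqp11 at 11.1, 15.9 and 10.4 CPM distally and 20.5, 22.4 and 19.2 CPM proximally. Neither gene's segments overlapped. Proximal minus distal, Aqp8 differed by -1.29 ± 0.38 (log2, SE, edgeR adjusted p = 0.04784) and Aqp11 by 0.73 ± 0.19 (adjusted p = 0.02116). Both calls rested on single libraries: Aqp8 missed the threshold without any of the 3 distal libraries or without proximal library 1 or 2 (adjusted p up to 0.2373) and with a filter of 10 CPM in 3 libraries (adjusted p = 0.05116), and Aqp11 without distal library 1 or 3 or proximal library 1 or 2 (adjusted p up to 0.1481). Aqp4, which also did not overlap between the segments, differed by -0.95 ± 0.42 (adjusted p = 0.2522), and Aqp1 by 0.78 ± 0.28 (adjusted p = 0.1255).

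In the FIP2 knockout 3 of 4 tested aquaporins were called between the segments, against 9.47% of all tested genes, and none of the 4 overlapped, against 26.6% of all genes. Aqp1 had the widest gap, with 7.08, 13.8 and 10.4 CPM distally and 50.4, 56.1 and 51.5 CPM proximally. The proximal libraries were tightly grouped and 2.33 ± 0.29 higher on the log2 scale (edgeR adjusted p = 2.069e-05), 5.02-fold. Endothelial markers summed to 9.18 to 15.3 CPM in the proximal and 6.74 to 11.8 CPM in the distal libraries (median log2 difference 0.68, 1 of 8 called higher), and red cell markers to 14.3 to 37.7 CPM and 9.92 to 19.4 CPM (median 0.79). Both sums overlapped between the segments, with proximal against distal means of 11.2 and 8.77 CPM for endothelium and 26.3 and 14.6 CPM for red cells. Their part in the Aqp1 difference was not tested. Aqp11, at 8.58, 12.2 and 10.96 CPM distally and 14.8, 18.3 and 21.4 CPM proximally, stood 0.78 ± 0.19 higher proximally (adjusted p = 0.01096), and the threshold was missed without distal library 1 or proximal library 3. Aqp4 fell from 1013, 1469.7 and 1402 CPM distally to 289.8, 813 and 359.9 CPM proximally, by 1.41 ± 0.42 on the log2 scale (adjusted p = 0.04085), a call lost without distal library 2 or 3 or proximal library 1 or 3 (adjusted p up to 0.1777) and in DESeq2 (adjusted p = 0.05587). Aqp8 stood at 945, 1339 and 1331 CPM distally and 340.4, 816 and 583 CPM proximally, without overlap, and was not called at -1.06 ± 0.38 (adjusted p = 0.09648). With the replicate number as a block, taken as a pairing of the FIP2 knockout libraries, Aqp8 was called at -1.13 (adjusted p = 0.02796), as it was in DESeq2 at -1.06 (adjusted p = 0.04198).

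Loss of Rab11-FIP1 went with higher Aqp4 and with lower Aqp1 and Aqp11, called in the proximal colon only, although no difference between the segments in these effects passed the test. In the proximal comparison 3 of 4 tested aquaporins were called and did not overlap, against 13.6% of all tested genes called and 26.6% not overlapping. Aqp4 stood at 611, 531 and 978 CPM in the FIP1 knockout, all above the wild type values of 177, 482 and 111 CPM. The rise was 1.46 ± 0.43 (log2, SE, n = 3 against 3, edgeR adjusted p = 0.0273), 2.76-fold. It was lost without knockout library 3 (1.15, adjusted p = 0.1228) or without wild type library 1 (1.27, adjusted p = 0.1086) or 3 (1.11, adjusted p = 0.09826) and in a fit of these 6 libraries alone (1.48, adjusted p = 0.09021), and was 2.30 without wild type library 2 (adjusted p = 0.0006944). Aqp1, at 23.8, 18.7 and 34.3 CPM against 76.7, 43.3 and 61.0 CPM, fell by 1.23 ± 0.28 (adjusted p = 0.005794), to a level 2.35-fold lower. Red cell markers were higher there, at 34.8 to 77.5 CPM against 8.24 to 22.8 CPM, and endothelial markers stood at 6.68 to 14.8 CPM against 7.80 to 13.2 CPM. Aqp11 had 20.5, 22.4 and 19.2 CPM in the knockout against 38.4, 43.4 and 37.7 CPM in wild type, a fall by 0.94 ± 0.19 (adjusted p = 0.002129), 1.92-fold. The Aqp1 and Aqp11 calls held with each library left out in turn, and that of Aqp1 was lost in limma on unfiltered log2(FPKM + 1) (-1.01, adjusted p = 0.06719). Aqp8 hardly differed in mean, at 391 ± 172 CPM against 429 ± 132 CPM (SD, n = 3; log2 -0.13 ± 0.37, adjusted p = 0.8699).

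In the distal colon of the FIP1 knockout edgeR called 0 of 4 tested aquaporins, against 16.3% of all tested genes, with 1 at an unadjusted p under 0.05; DESeq2 called 0 of these 4 and limma on log2(FPKM + 1) called 1. The unadjusted edgeR value and the limma call were both of Aqp4. Its libraries, at 1476, 1498 and 1112 CPM, all stood above the wild type values of 679, 575 and 628 CPM, and of the 4 genes it was the 1 without overlap, against 35.8% of all genes. The difference was 1.12 ± 0.42 (edgeR adjusted p = 0.07764). In a fit of these 6 libraries alone it was 1.13 with an adjusted p of 0.003471. Aqp1 (14.8, 19.5 and 10.8 CPM), Aqp11 (11.1, 15.9 and 10.4 CPM) and Aqp8 (976, 1174 and 714 CPM) overlapped wild type, at -0.59 ± 0.28, -0.32 ± 0.19 and -0.55 ± 0.38 on the log2 scale (adjusted p = 0.1707, 0.2894 and 0.3574).

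Loss of Rab11-FIP2 went with lower Aqp11 in the proximal and lower Aqp1 in the distal colon. In the proximal comparison 1 of 4 tested aquaporins was called and did not overlap, against 14.7% of all tested genes called and 29.3% not overlapping. This was Aqp11, at 14.8, 18.3 and 21.4 CPM against 38.4, 43.4 and 37.7 CPM in wild type, a fall by 1.13 ± 0.19 (log2, SE, n = 3 against 3, edgeR adjusted p = 0.0006345), 2.19-fold, which held with each library left out. Aqp1, at 50.4, 56.1 and 51.5 CPM, lay inside the wild type range, with a difference of -0.20 ± 0.27 (adjusted p = 0.6738). Aqp4, at 289.8, 813 and 359.9 CPM, overlapped wild type and differed by 0.93 ± 0.42 (adjusted p = 0.1463). This value moved with single libraries, from 0.35 without knockout library 2 (adjusted p = 0.637) and 0.57 without wild type library 3 to 1.77 without wild type library 2 (adjusted p = 0.003803). Aqp8 differed by 0.43 ± 0.38 (adjusted p = 0.4703).

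In the distal colon of the FIP2 knockout 1 of 4 tested aquaporins was called, against 18.5% of all tested genes, and 3 of 4 did not overlap, against 37.6% of all. Aqp1 stood at 7.08, 13.8 and 10.4 CPM, all below the wild type values of 22.7, 28.6 and 16.3 CPM. It fell by 1.11 ± 0.28 (log2, SE, edgeR adjusted p = 0.0112), to a level 2.15-fold lower, and the call was lost without knockout library 1 (adjusted p = 0.06097) or wild type library 2 (adjusted p = 0.06044) and in limma on unfiltered log2(FPKM + 1) (-0.89, adjusted p = 0.09746). Endothelial markers summed to 6.74 to 11.8 CPM in these knockout libraries against 14.0 to 33.7 CPM in wild type, and red cell markers to 9.92 to 19.4 CPM against 20.2 to 101 CPM, so both lists moved with Aqp1 here; their part in it was not tested. Aqp11, at 8.58, 12.2 and 10.96 CPM against 13.7, 17.7 and 15.04 CPM, differed by -0.55 ± 0.19 (adjusted p = 0.05117) with no overlap, and was called in DESeq2 at -0.54 (adjusted p = 0.0428). Aqp4, at 1013, 1469.7 and 1402 CPM, stood above all wild type libraries and differed by 1.05 ± 0.42 (adjusted p = 0.0903; 1.04 with an adjusted p of 0.00814 in a fit of these 6 libraries alone). Aqp8 differed by -0.21 ± 0.37 (adjusted p = 0.736).

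**Figure D3:**
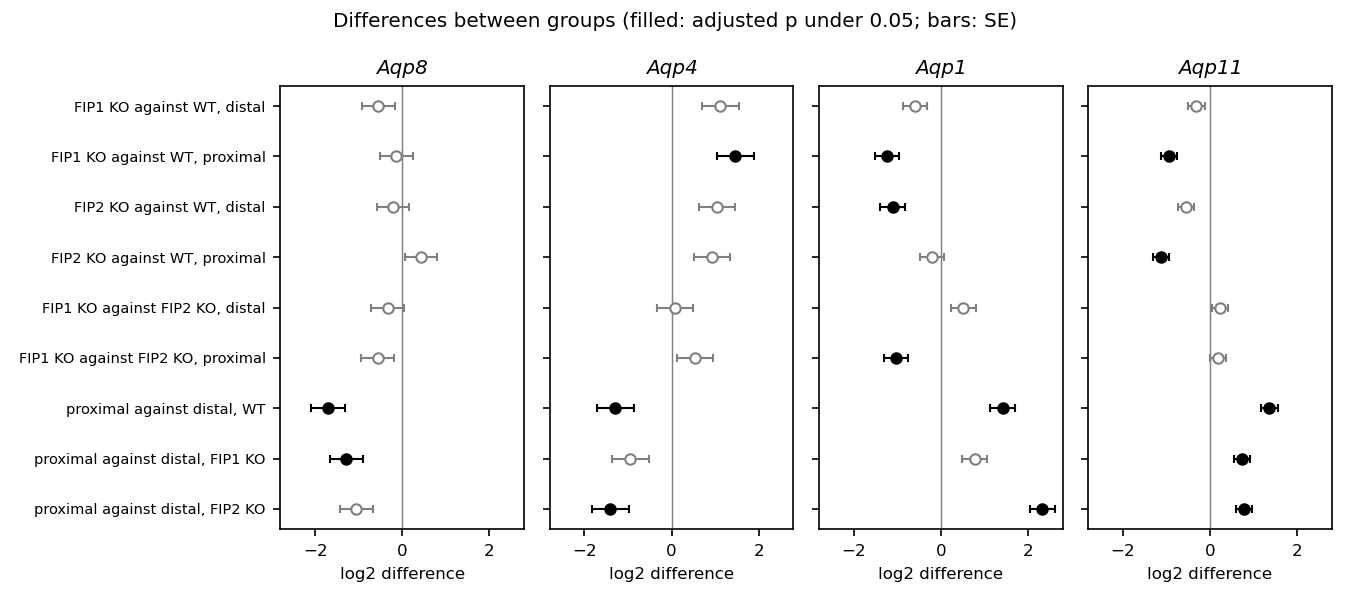
Points give the fitted log2 difference in level for each aquaporin in 9 comparisons, with bars of 1 SE; filled points had an edgeR adjusted p under 0.05. Aqp11 lies left of 0 in all 4 knockout comparisons with wild type, Aqp4 lies right of 0 in all 4, and the 3 comparisons of the segments point the same way for each gene.

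Set against each other, the knockouts differed in 1 aquaporin. In the proximal colon Aqp1 was lower in the FIP1 knockout (23.8, 18.7 and 34.3 CPM) than in the FIP2 knockout (50.4, 56.1 and 51.5 CPM), with a difference of -1.04 ± 0.28 (log2, SE, edgeR adjusted p = 0.04906), 2.05-fold, where 2.75% of all tested genes were called. The libraries did not overlap, as in 27.1% of all genes, but the call was lost when any library was left out other than FIP1 knockout library 3 (adjusted p from 0.1008 to 0.2247), under the replicate block (0.0637) and in limma on log2(FPKM + 1) (0.09157). In the distal colon edgeR called 0 of 4, against 1.86% of all tested genes, with 0 at an unadjusted p under 0.05 and 0 by DESeq2 or limma, and Aqp1 differed by 0.52 ± 0.29 (adjusted p = 0.4284). Whether a knockout's effect differed between the segments was tested as an interaction, in which edgeR, DESeq2 and limma called 0 of 4 for either knockout. For FIP1 loss 0.644% of all genes were called and for FIP2 loss 0.328%, both at the adjusted threshold. These shares are no background for the unadjusted counts that follow, for which no share over all genes is given. At an unadjusted p under 0.05 edgeR had 1 aquaporin for FIP1 loss, Aqp11 at -0.63 ± 0.27 (adjusted p = 0.4453), and 2 for FIP2 loss, Aqp1 at 0.91 ± 0.39 (adjusted p = 0.4396) and Aqp11 at -0.58 ± 0.27 (adjusted p = 0.4742).

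Aqp4 stood closer to Aqp8 in most knockout libraries than in wild type. The FPKM of Aqp4 divided by that of Aqp8 in the same library was 0.138, 0.185 and 0.0829 in wild type distal colon, 0.406, 0.343 and 0.419 in the FIP1 knockout and 0.288, 0.295 and 0.283 in the FIP2 knockout. All 6 distal knockout libraries stood above all 3 wild type ones. Proximally the ratio was 0.170, 0.246 and 0.0618 in wild type, 0.836, 0.312 and 0.505 in the FIP1 knockout and 0.229, 0.267 and 0.166 in the FIP2 knockout. Only the FIP1 knockout was free of overlap with wild type there. As geometric means the ratio was 3.02-fold (FIP1, distal), 3.71-fold (FIP1, proximal), 2.25-fold (FIP2, distal) and 1.58-fold (FIP2, proximal) that of wild type. A two-sided exact permutation test gave p = 0.1 for the first 3, the smallest that 3 against 3 libraries allow, and p = 0.5 for the last, or 0.15 and 0.5625 after Benjamini-Hochberg adjustment over the 9 comparisons made, so the design could not reach 0.05. Between the segments of wild type the ratio was level at 1.07-fold (exact p = 1.0), with Aqp8 and Aqp4 both lower proximally.

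By CPM, Aqp4 and Aqp8 were both highest in the same library of each proximal group. That library also held the most transcript of the distal Hox markers, a list of 5 of which 4 are in the table. In wild type this was library 2, with 482 CPM of Aqp4 and 27.0 CPM of markers, against 7.59 and 3.75 CPM of markers in libraries 1 and 3. In the FIP1 knockout it was library 3 (978 CPM of Aqp4, 22.1 CPM of markers, against 4.08 and 1.29 CPM) and in the FIP2 knockout library 2 (813 CPM and 27.1 CPM, against 13.8 and 11.4 CPM). Aqp8 stood at 528, 520.2 and 816 CPM in the 3 named libraries, in the same order. As deposited FPKM, wild type Aqp8 was instead highest in proximal library 3, at 334 FPKM against 314 FPKM in library 2. Libraries 1 and 3 of the FIP2 knockout ran the other way, with 289.8 CPM of Aqp4 beside 13.8 CPM of markers and 359.9 CPM beside 11.4 CPM. Hoxa13, a gene of the hindgut's far end, made up most of the marker sums in the 3 named libraries, with 19.8 CPM or more in each. Aqp4 is an astrocyte gene too, and wild type proximal library 2 also had the most glial marker transcript of its group: the 10 glia and astrocyte markers summed to 121 CPM there and to 43.3 CPM in the lowest of the group, with Slc1a2 at 37.5 CPM against 7.59 and 6.97 CPM and Gfap at 3.96 CPM against 1.54 and 1.65 CPM. Over all groups that list summed to 83.3 to 128 CPM distally and 24.7 to 121 CPM proximally, of which Aldh1l1 alone gave 70.4 CPM or more in each distal library, and Gfap never passed 3.96 CPM. Of the 8 glial markers tested, 5 were called lower and 1 higher in proximal FIP1 knockout, and 6 lower and 1 higher in proximal FIP2 knockout. The part of either marker list in the Aqp4 or Aqp8 levels was not tested.

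**Figure D4:**
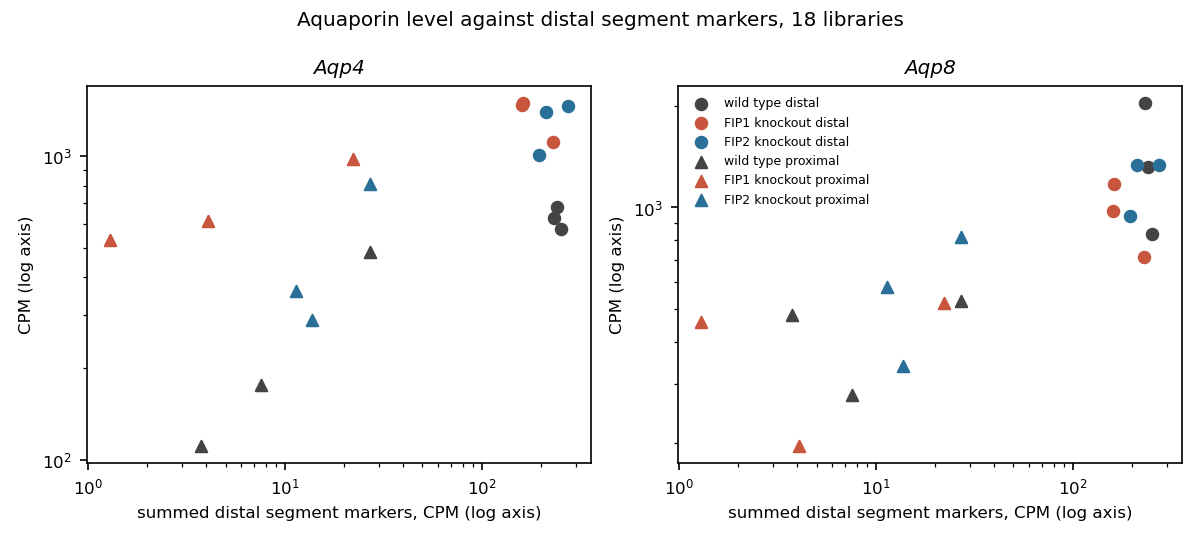
Each point is 1 of 18 libraries, with the summed CPM of the distal segment markers on the x axis and the CPM of Aqp4 (left) or Aqp8 (right) on the y axis, all log axes; colours give genotype, circles distal and triangles proximal colon. In the left panel the FIP1 knockout proximal triangles lie above all wild type triangles, and the distal wild type circles lie below all distal knockout circles.

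The aquaglyceroporins Aqp3 and Aqp7 were close to undetected. Aqp3, which passes water and glycerol through basolateral membranes of many epithelia, had 35 counts in all 18 libraries together and at most 5 in any one. By group it had 1, 0 and 4 counts in wild type distal, 4, 2 and 2 in wild type proximal, 0, 4 and 0 in FIP1 knockout distal, 0, 1 and 1 in FIP1 knockout proximal, 1, 0 and 2 in FIP2 knockout distal and 5, 4 and 4 in FIP2 knockout proximal libraries. The highest group total, 13 counts in proximal FIP2 knockout, was 5.62 times the 3 counts of its distal libraries per library total, with an exact 95% counting interval from 1.54 to 30.7 and an adjusted p of 0.5093 in edgeR with low genes kept. Aqp7, the glycerol channel of fat cells, had 4, 4 and 4 counts in the distal and 0 in each proximal wild type library. In the FIP1 knockout it had 2, 0 and 4 counts distally and 1, 0 and 0 proximally, and in the FIP2 knockout 0 in all 6 libraries. With 3 counts per group taken as the floor, the 12 counts of distal wild type stood 5.26-fold above the floor of distal FIP2 knockout. They stood 3.09-fold above that of proximal wild type. These folds leave out the counting error of the 12 counts. The exact 95% counting interval of distal wild type ran from 0.138 to 0.465 CPM, and those of the groups at 0 reached 0.0622 and 0.106 CPM. EdgeR with low genes kept in the fit gave Aqp7 adjusted p of 0.06676 and 0.147 in these comparisons. Limma on unfiltered log2(FPKM + 1) called it in both comparisons. The 8 fat cell markers summed to 3.20 to 6.49 CPM in distal and 24.2 to 32.3 CPM in proximal wild type libraries. Most of the proximal sum was Cidec, at 18.02 to 30.6 CPM, while Plin1, Lep and Retn were at 0 in all 6 wild type libraries and Adipoq had counts in 3 of them. The list thus stood higher where Aqp7 stood lower, and its part in the Aqp7 counts was not tested. None of the 6 other aquaporins listed passed the filter. Aqp5, a channel of gland cells, had 91 counts, of which 43 were in FIP1 knockout distal library 2 and 23 in wild type proximal library 2. Aqp12 had 80 counts, Aqp9 13, the lens channel Mip 6, Aqp6 1 and Aqp2 0.

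Other genes of salt and water transport in the colon were read as a list of 48, of which 46 were tested. More of them fell than rose in each of the 4 comparisons of a knockout with wild type. These comparisons share wild type libraries, and the list was chosen with earlier results of these data known. In the distal FIP1 knockout 1 rose and 6 fell (median log2 difference -0.14, against -0.0022 over all tested genes), where 8.84% of all tested genes rose and 7.47% fell. In the distal FIP2 knockout 3 rose and 15 fell (median -0.21), against 9.13% and 9.38% of all tested genes. Fxyd4, a regulator of the sodium pump, fell in both, from 35.9 CPM in wild type to 2.52 CPM with FIP1 loss (-3.83 ± 0.39, edgeR adjusted p = 2.12e-06) and 2.93 CPM with FIP2 loss (-3.61 ± 0.38, adjusted p = 3.034e-06). The phosphate carrier Slc20a1 fell from 1812 CPM to 263 and 240.0 CPM. Car2, a carbonic anhydrase, fell by 1.17 ± 0.21 with FIP1 loss and Scnn1b, a subunit of the epithelial sodium channel ENaC, by 1.43 ± 0.20 with FIP2 loss. The genes that rose included Guca2b, the uroguanylin precursor, with FIP1 loss (0.90 ± 0.25), and the bicarbonate carrier Slc4a7 (1.09 ± 0.26) and the protease Tmprss2 (0.72 ± 0.20) with FIP2 loss.

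In the proximal colon 2 of the 46 rose and 5 fell with FIP1 loss (median -0.11), and 3 rose and 8 fell with FIP2 loss (median -0.24), against 6.7% rising and 6.89% falling of all tested genes for FIP1 loss and 7.6% and 7.07% for FIP2 loss. The FIP1 counts were near these shares. Without wild type proximal library 2 the counts were 3 and 4 with FIP1 loss and 4 and 11 with FIP2 loss. The background moved too. With all libraries 2404 of 17692 tested genes were called in either direction with FIP1 loss and 2594 with FIP2 loss. Without that library it was 2334 of 18363 with FIP1 loss and 3608 with FIP2 loss. Slc5a8, which takes up short chain fatty acids with sodium, rose in both, from 150 CPM to 402 CPM (1.42 ± 0.23, edgeR adjusted p = 0.0002926) and 435 CPM (1.54 ± 0.23, adjusted p = 0.0002062). The colonic proton pump Atp12a, a gene of the distal colon at 621 CPM in distal wild type, rose from 0.493 CPM to 5.14 CPM with FIP1 loss and 18.9 CPM with FIP2 loss. The distal Hox markers summed to 1.29 to 22.1 CPM and 11.4 to 27.1 CPM in these knockout libraries against 3.75 to 27.0 CPM in wild type, and their part in the Atp12a level was not tested. Slc20a1 (-1.55 ± 0.34 and -2.04 ± 0.34) and the anion channel Best2 (-1.18 ± 0.33 and -1.69 ± 0.34) fell in both. Scnn1g, another ENaC subunit, fell with FIP2 loss (-2.46 ± 0.49). Between the wild type segments 5 of the 46 were higher and 14 lower proximally (median -0.19), against 8.96% and 7.39% of all tested genes. Car1 was 4.01 ± 0.43 higher, and Fxyd4 (-6.54 ± 0.50), the chloride channel Ano1 (-3.06 ± 0.26) and Atp12a (-10.36 ± 0.97) were lower. Fxyd4 was the 1 gene of the list whose knockout effect differed between the segments by the interaction test, for FIP1 loss (3.801 ± 0.77, adjusted p = 0.02731) and for FIP2 loss (4.51 ± 0.70, adjusted p = 0.004829), with wild type proximal colon at 0.399 CPM.

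Of 18 genes that make, use or store glycerol, all tested, 4 rose and 2 fell in distal FIP1 knockout, 2 and 2 in proximal FIP1 knockout, 3 and 5 in distal FIP2 knockout and 0 and 2 in proximal FIP2 knockout (medians -0.21, -0.16, -0.24 and -0.34). Over all tested genes 8.84% rose and 7.47% fell, 6.7% and 6.89%, 9.13% and 9.38%, and 7.6% and 7.07% in the same order. Without wild type proximal library 2 the proximal counts were 1 and 4 with FIP1 loss and 1 and 5 with FIP2 loss. In that fit 2334 of 18363 tested genes were called in either direction with FIP1 loss and 3608 with FIP2 loss. Plin2, a coat protein of lipid droplets, fell in each, at -1.43 ± 0.23, -1.01 ± 0.23, -1.37 ± 0.23 and -1.03 ± 0.23 on the log2 scale. Gk, the glycerol kinase that traps glycerol in the cell, rose in the first 3, by 0.73 ± 0.22, 1.61 ± 0.23 and 0.95 ± 0.22. Proximal wild type colon had 8 of the 18 higher and 2 lower than distal, against 8.96% and 7.39% of all tested genes, among them Lpin2 (2.63 ± 0.34) and Mgll (2.48 ± 0.33), which releases glycerol from monoacylglycerol, and Gk at -1.45 ± 0.23.

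Of 32 genes of vesicle traffic known to act on aquaporins, all tested, 4 rose and 2 fell in distal FIP1 knockout, 1 and 2 in proximal FIP1 knockout, 7 and 3 in distal FIP2 knockout and 2 and 3 in proximal FIP2 knockout, with medians of 0.07, -0.02, 0.12 and -0.06. The shares of all tested genes that rose and fell were 8.84% and 7.47%, 6.7% and 6.89%, 9.13% and 9.38%, and 7.6% and 7.07%, so several of these counts, such as 1 and 2 of 32, are near or below the background. Without wild type proximal library 2 the proximal counts were 2 and 2 with FIP1 loss and 5 and 5 with FIP2 loss. In that fit 2334 of 18363 tested genes were called in either direction with FIP1 loss and 3608 with FIP2 loss. The counts of this list include Rab11fip1 and Rab11fip2 themselves in their own knockouts. Rab11a, the GTPase that both adaptors bind, rose in the distal colon from 94.1 CPM to 167 CPM with FIP1 loss (0.83 ± 0.18, edgeR adjusted p = 0.003957) and 183 CPM with FIP2 loss (0.96 ± 0.18, adjusted p = 0.001198). The chaperone Hspa5 rose with FIP2 loss in both segments (1.32 ± 0.24 and 1.31 ± 0.24), and the membrane fusion gene Stx4a fell there (-0.60 ± 0.16 and -0.59 ± 0.16). Prkar2b, a regulatory subunit of protein kinase A, fell with FIP1 loss in both (-2.30 ± 0.54 and -2.31 ± 0.56). The comparisons of each knockout with wild type share the wild type libraries, so like values in both do not stand for separate observations.

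Each tested aquaporin was set against 11989 other genes by the Pearson correlation of log2 CPM over the 18 libraries, which share genotype and segment groups, so the values describe these groups and carry no test. Aqp8 was most like Pcgf5 (r = 0.917), the carbonic anhydrase Car4 (0.898), Ddit4 (0.887), Ggh (0.882) and Cyp2d12 (0.874). Aqp4 was most like Gna14 (0.914), Txn1 (0.911), Hspa12a (0.902), Zdhhc2 (0.901) and Skap2 (0.899). Among the genes most like Aqp1 were Cdk6 (0.932), Zfp667 (0.922), Prlr (0.922) and the potassium channel Kcnq1 (0.903), and Aqp11 was most like Surf1 (0.961), Tfpi2 (0.951), Aldh3a2 (0.946), Pmm1 (0.944) and Zfyve9 (0.944). Among themselves, Aqp1 and Aqp11 had r = 0.804 and Aqp4 and Aqp8 r = 0.590, while each pairing across these 2 pairs was negative, from -0.763 to -0.565.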

How the data were processed

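RNA was poly-A selected and sequenced with 150 nt reads, per the labels. The authors deposited counts per gene and FPKM per gene in tables of the whole series. STAR 2.5 and TopHat, HTSeq 0.6.1, DESeq2 and the GRCm38 (mm10) build are listed, per the submitters' processing notes. The authors' FPKM fitted 1 length per gene across libraries for 30034 of 30034 genes within 1e-04, a length that differs from the listed one for Aqp3, Aqp7, Aqp8 and Aqp11. Members and gene lists were chosen with earlier results of these data known.

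Counts were tested with edgeR 4.0.16 (R 4.3.3): TMM scaling, filterByExpr, 1 quasi-likelihood fit to 18 libraries, 11 contrasts, Benjamini-Hochberg adjustment over 17692 genes within each, and a call at an adjusted p under 0.05. Standard errors are the log2 difference over the square root of F. CPM uses TMM-scaled totals. The square root of the common dispersion was 0.234. No pair of replicates agreed within sampling noise. The exact interval and the floors given for low counts cover counting error only. On simulated data of 17155 genes for the distal FIP1 comparison, the fit recovered 49% of 2-fold and 91% of 4-fold changes, and for the FIP1 interaction 20% and 75%.

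Same-numbered distal and proximal libraries deviated together in the FIP2 knockout (residual correlations 0.355, 0.2 and 0.242), which was taken as pairing. In the FIP1 knockout (0.2, 0.175 and 0.0683) and wild type (-0.0816, 0.11 and 0.169) they did not all pass 0.1. Pairs with unlike numbers ran from -0.236 to 0.0418 in the FIP2 knockout, -0.172 to -0.00297 in the FIP1 knockout and -0.18 to 0.0596 in wild type. Deviations from a group mean cancel within the group, so the values of unlike pairs are no separate support for a pairing. Pairing in the FIP1 knockout was thus not settled, and that in the FIP2 knockout is an assumption. The labels do not say what a replicate number stands for. The replicate block for the segments held terms for all 3 genotypes, and calls come from the fit without it unless it is named. Genes named are all members, the other listed aquaporins, both targeted genes, up to 3 called genes each way per list and comparison in order of adjusted p, the 5 genes most like each tested member (at least 1 CPM on average; 1 of those for Aqp1 is not reported here), and markers that move with a member. Alternatives were relative log expression scaling, other filters, the compared libraries alone, the replicate block, omission of mitochondrial genes, DESeq2 1.42.0, limma 3.58.1 on log2(FPKM + 1) or log2(FPKM + 0.1), and each library left out.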

Additional observations from a re-analysis of the deposited data

How the results depend on the processing

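Of 784 recomputed single aquaporin differences, 704 kept their direction and their side of the threshold, 44 lost a call, 21 gained one and 15 changed sign; 164 of 196 recomputed counts of called aquaporins stayed within 1.5 times. With no filter on low counts the fit called 2 aquaporins in distal FIP1 knockout, 2 in distal and 2 in proximal FIP2 knockout and 4 between segments of the FIP1 knockout. A filter of 10 CPM in 3 libraries gave 2 in distal FIP2 knockout and 1 between the FIP1 knockout segments. The compared libraries alone gave 1 in distal FIP1 and 2 in distal FIP2 knockout. The replicate block gave 2 in distal FIP2 knockout and 0 between the proximal knockouts, and DESeq2 gave 2 in distal FIP2 knockout. Limma on log2(FPKM + 1) gave 1 in distal FIP1 knockout and 0 between the proximal knockouts, where log2(FPKM + 0.1) gave 0 and the unfiltered FPKM 0, with 1 between the FIP1 knockout segments and, in distal FIP2 knockout, 1 that was Aqp7 in place of Aqp1. Without the 3 proximal libraries highest in distal markers (added after seeing the data) 2 were called in proximal FIP2 knockout. By CPM these libraries also held the most Aqp4 and the most Aqp8 of their groups, so leaving them out takes away the highest value of both. With each library left out in turn the counts ran from 0 to 2 in distal FIP2 knockout, from 1 to 2 in proximal FIP2 knockout, from 0 to 1 between the proximal knockouts, from 0 to 2 between the FIP1 knockout segments and from 1 to 3 between the FIP2 knockout segments. Under the replicate block Aqp8 was gained between the FIP2 knockout segments (adjusted p = 0.02796), Aqp11 in distal FIP2 knockout was gained (0.02577) and Aqp1 between the proximal knockouts was lost (0.0637); no other aquaporin call changed. Between genotypes the libraries share only a number.

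Sign changes touched uncalled values. With each library left out in turn, Aqp8 ran from -0.40 to 0.20 in proximal FIP1 knockout (0.05 without wild type library 2) and from -0.47 to 0.16 in distal FIP2 knockout, Aqp1 from -0.38 to 0.021 in proximal FIP2 knockout, Aqp4 from -0.074 to 0.20 between the distal knockouts (-0.012 without FIP1 knockout library 2), and the Aqp4 interactions from -0.0087 to 1.19 for FIP1 loss and from -0.70 to 0.72 for FIP2 loss (0.16 and 0.063 among them). The last was 0.038 with the replicate block, 0.084 by limma on log2(FPKM + 1) with or without a filter, 0.10 on log2(FPKM + 0.1) and 0.13 without the 3 libraries. The cause was not tested. Depth limits Aqp3 and Aqp7, which had at most 5 counts in a library.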
